A study of Homo sapiens with 12 samples.

Results

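The genes for the proteins of the mitochondrial ribosome were followed in 2 lung adenocarcinoma lines under the EGFR inhibitor erlotinib. They were taken as every gene whose symbol on the array platform begins with MRPL or MRPS and a number, through probe sets paired with 1 symbol, with the probe set of highest mean log2(signal + 8) over the 12 arrays standing for its gene. This gave 77 symbols of the 19775 genes with such a probe set. Of these, 75 code for proteins, 48 named for the large subunit (MRPL) and 27 for the small subunit (MRPS), and the antisense RNA MRPL20-AS1 and the pseudogene MRPL45P2 are given apart. MRPS24 and MRPL53 were found only on probe sets shared with other symbols and were not analysed here. All 75 protein genes were bright enough to be among the 13185 genes tested.

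There were 4 groups of 3 arrays each: PC9 cells in erlotinib, PC9 cells in DMSO, HCC827 cells in erlotinib and HCC827 cells in DMSO. PC9 and HCC827 are established human lines with activating EGFR mutations, so the controls carry the mutant receptor too, and DMSO is the solvent of the drug. Erlotinib was given at 2 micromolar for 8 days, and DMSO for the same time. Per the labels more cells were plated for erlotinib than for DMSO, and in other vessels, while the series text names 1 kind of flask throughout; plated number and vessel cannot be told apart from the drug. No label states whether a group's 3 arrays are of independent cultures, so p-values measure only the spread between these samples.

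Mitochondria keep a ribosome of their own, which makes the few proteins encoded in mitochondrial DNA, all of them subunits of the oxidative phosphorylation complexes. Its RNA comes from mitochondrial DNA, but its proteins are encoded in the nucleus, translated in the cytosol and imported. Part of these proteins descend from the bacterial ribosome, and the rest are specific to mitochondria.

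The arrays give linear signals in arbitrary units, scaled per array, with a median of 13 over the table. The mean signals of the 75 protein genes ran from 191 to 2329 with a median of 916, and 65 of them were at 300 or more in each group. Signals of different probe sets do not rank genes by abundance, so a gene is compared only with itself. Changes are differences of log2(signal + 8), with the standard error (SE) of the fit. A gene was called, and is said to have risen or fallen, when the limma p-value adjusted over all 13185 genes was under 0.05. The arrays measure RNA of the whole culture, so that fewer cells making a message and less message per cell cannot be told apart.

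Within groups, r between arrays over genes was 0.9929 to 0.9973. The summed signal of 5 epithelial markers was 12306 to 14439 with erlotinib and 12888 to 14142 with DMSO in PC9, and 10590.4 to 11688 and 11645 to 11866 in HCC827, whereas the leukocyte markers PTPRC, CD3E and CD14 were each between 0.2 and 6.8 on every array. Of the endothelial markers VWF was too dim to test, and in PC9 PECAM1 fell by 0.71 ± 0.09 and CDH5 rose by 0.72 ± 0.12; the sum of the 3 was 653 to 704 with erlotinib against 895 to 988 with DMSO in PC9, and 9 to 16.8 against 10 to 12.3 in HCC827. In PC9 the lung lineage factor NKX2-1 read 38 to 55.1 with erlotinib and 10.2 to 20.5 with DMSO, a rise of 1.34 ± 0.14. In HCC827 NKX2-1 read 1753 to 2062.5 with erlotinib and 1922.9 to 2209.7 with DMSO and was not called. The lung lineage marker SFTPC read 7.6 to 32.3 over all arrays. It was called in neither line and not between the DMSO groups. Of 4 fibroblast markers, LUM and COL1A1 rose with erlotinib in both lines and the other two were too dim to test. Their summed signal was 379.8 to 458 with erlotinib against 75.6 to 93.8 with DMSO in PC9, and 609.8 to 674 against 149.5 to 175 in HCC827. All 3 proliferation markers (MKI67, TOP2A, CCNB1) fell in both lines, with sums of 2841 to 3237 against 4662 to 4836 in PC9 and 3775 to 4227 against 5011 to 5285 in HCC827. The part of the lung lineage, endothelial, fibroblast and proliferation markers in the results below was not tested.

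Promoters of 6 members are shown because many members moved together, and because ETS proteins of the GABP type, YY1 and the nuclear respiratory factor NRF1 are known regulators of nuclear genes for mitochondrial proteins. The windows hold 250 bases before and 30 after a start site of RefSeq (GRCh38.p14), and 67 of the 75 protein genes had a window. Several starts were given for 11 of the 67, so there were 83 windows. A gene counts as holding a spelling if any of its windows does, for members and for all genes. The promoters shown are of members with a single start. Capitals mark CCGGAAG, the core of an ETS site, or AANATGGC, the core of a YY1 site, on either strand. MRPS34 and MRPL3 are members with ETS letters and a large fall in PC9. The windows of MRPS34 at chr16:1773105-1773384 on the minus strand and of MRPL3 at chr3:131502942-131503221 on the minus strand read:
MRPS34: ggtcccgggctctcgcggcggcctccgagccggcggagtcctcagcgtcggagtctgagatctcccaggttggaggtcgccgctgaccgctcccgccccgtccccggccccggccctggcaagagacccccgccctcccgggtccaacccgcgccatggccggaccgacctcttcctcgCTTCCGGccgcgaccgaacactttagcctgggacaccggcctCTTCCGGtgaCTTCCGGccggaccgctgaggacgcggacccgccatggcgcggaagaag
MRPL3: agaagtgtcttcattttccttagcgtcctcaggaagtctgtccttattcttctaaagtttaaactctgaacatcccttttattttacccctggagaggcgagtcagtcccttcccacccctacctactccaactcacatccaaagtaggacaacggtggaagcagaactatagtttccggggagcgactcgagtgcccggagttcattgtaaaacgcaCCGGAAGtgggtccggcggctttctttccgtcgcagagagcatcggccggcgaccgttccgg

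MRPL38 and MRPS10 hold both ETS and YY1 letters, and in each the YY1 letters lie just after the start. The windows of MRPL38 at chr17:75904855-75905134 on the minus strand and of MRPS10 at chr6:42217832-42218111 on the minus strand read:
MRPL38: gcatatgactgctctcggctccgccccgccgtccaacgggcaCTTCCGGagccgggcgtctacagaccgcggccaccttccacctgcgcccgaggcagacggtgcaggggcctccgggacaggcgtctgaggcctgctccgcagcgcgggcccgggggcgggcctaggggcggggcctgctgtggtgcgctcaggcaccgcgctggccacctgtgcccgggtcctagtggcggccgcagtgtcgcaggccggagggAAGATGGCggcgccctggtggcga
MRPS10: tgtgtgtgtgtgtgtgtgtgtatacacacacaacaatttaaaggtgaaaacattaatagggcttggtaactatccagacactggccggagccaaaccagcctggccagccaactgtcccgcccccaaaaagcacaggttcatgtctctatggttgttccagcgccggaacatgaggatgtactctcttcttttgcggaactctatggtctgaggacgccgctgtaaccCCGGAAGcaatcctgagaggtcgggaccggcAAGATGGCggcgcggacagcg

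MRPL12, with the largest difference between the lines on the probe sets used, holds neither spelling. MRPS14, with a change in PC9 close to 0 on the probe set used, holds the YY1 letters alone. Another probe set of MRPS14 rose in both lines (0.43 in PC9 and 0.40 in HCC827). The windows of MRPL12 at chr17:81703117-81703396 on the plus strand and of MRPS14 at chr1:175023396-175023675 on the minus strand read:
MRPL12: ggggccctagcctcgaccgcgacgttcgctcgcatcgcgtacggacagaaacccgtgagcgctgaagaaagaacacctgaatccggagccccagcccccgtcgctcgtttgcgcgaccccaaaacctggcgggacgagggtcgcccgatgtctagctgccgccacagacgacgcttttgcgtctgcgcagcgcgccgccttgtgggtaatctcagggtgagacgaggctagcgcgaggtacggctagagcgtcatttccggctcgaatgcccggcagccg
MRPS14: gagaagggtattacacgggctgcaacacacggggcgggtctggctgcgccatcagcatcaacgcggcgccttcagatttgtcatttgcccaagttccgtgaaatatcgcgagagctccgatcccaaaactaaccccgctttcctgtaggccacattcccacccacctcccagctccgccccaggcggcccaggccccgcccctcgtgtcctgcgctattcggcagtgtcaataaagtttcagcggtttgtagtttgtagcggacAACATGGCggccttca

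CCGGAAG stood in the promoters of 29 of the 67 members (43.3%, against 16.2% of the 15843 protein-coding genes with a window of the same length). AANATGGC stood in 20 members (29.9%, against 8.3%). The site of NRF1, named here without its letters, stood in 9 (13.4%, against 9.6%), and the E-box CACGTG, the letters that MYC binds, in 8 (11.9%, against 10.6%). CCGGAAG was in 24 of the 57 members with a window that fell in PC9 and in 5 of the 10 that did not pass, and AANATGGC in 16 of the 57 and 4 of the 10. The other spellings searched, also on both strands, were CCGGAAGT (16.4%, against 6.9%), TGACGTCA (1.5%, against 3.0%), GGGCGG (58.2%, against 63.4%), CCAAT (34.3%, against 41.5%), a pair of longer YY1 sites (13.4%, against 1.7%, and 13.4%, against 1.9%) and the NRF1 palindrome (1.5%, against 2.0%). Longer spellings contain or overlap shorter ones, so these shares are not separate counts. Which spellings are described first and which promoters are shown was settled after the matches were seen. A match is a description of the letters.

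In PC9 the mitochondrial ribosomal protein genes were lower with erlotinib almost throughout. Of the 75, 64 fell, 0 rose and 11 were not called, where 28.3% of all genes tested fell and 36.3% rose. At an unadjusted limma p under 0.05, 0 members were higher. The median change was -0.43, against 0.05 over all genes tested, and the quartiles of the members were -0.60 and -0.32. The change of each single gene was modest: 0 of the 75 reached 2-fold, and the largest fall left 0.533 of the DMSO level. All 3 erlotinib arrays were below all 3 DMSO arrays for 65 members (86.7%), where the same held for 28.3% of genes tested.

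Relative to each gene's mean over the PC9 DMSO arrays, the median member stood at -0.53, -0.38 and -0.41 on the erlotinib arrays and at 0.10, -0.07 and -0.02 on the DMSO arrays. Each erlotinib array thus lay below each DMSO array in its median member, with DMSO replicate 1 the highest.

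**Figure D1:**
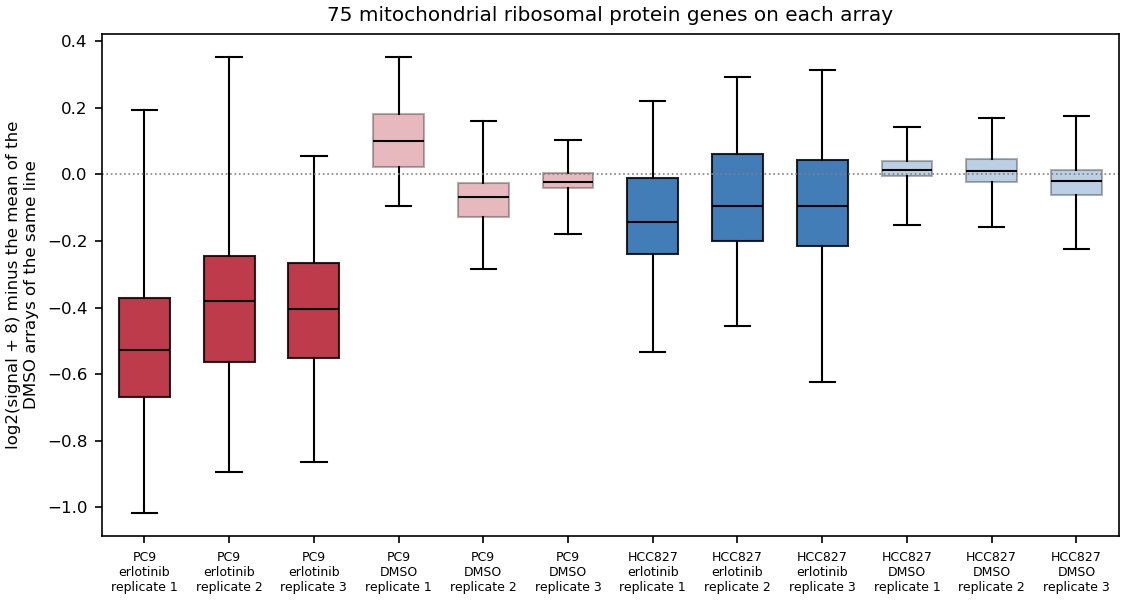
Each box gives the 75 mitochondrial ribosomal protein genes on 1 array as log2(signal + 8) minus the gene's mean over the DMSO arrays of its line (vertical axis); boxes span the quartiles, lines mark medians and whiskers reach the lowest and highest gene. The PC9 erlotinib boxes have medians of -0.53, -0.38 and -0.41, and the HCC827 erlotinib boxes lie nearer 0, at -0.14, -0.09 and -0.10.

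MRPL35, a large-subunit protein with a bacterial counterpart, had the largest fall in PC9 on the probe sets used. Its signal was 607, 673 and 693 with erlotinib, against 1295, 1204 and 1216 with DMSO. The groups lay far apart, with a log2 change of -0.91 ± 0.06 (SE, adjusted p = 1.1e-09). MRPS34, a small-subunit protein specific to mitochondria, read 281, 277 and 294 with erlotinib, against 612, 452 and 515 with DMSO. The erlotinib arrays lay close together under the more scattered DMSO arrays, a change of -0.86 ± 0.09 (adjusted p = 3.48e-07).

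MRPL12 forms the flexible stalk of the large subunit, on which translation factors dock. In PC9 it read 143, 165 and 179 with erlotinib, against 377, 243 and 276 with DMSO. Its groups did not overlap although the DMSO arrays differed among themselves, and it fell by 0.83 ± 0.13 (adjusted p = 2.76e-05). MRPL4, part of the tunnel through which the new chain leaves, read 297, 353 and 365 with erlotinib, against 695, 521 and 568 with DMSO, and fell by 0.80 ± 0.10 (adjusted p = 1.73e-06).

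Of the small subunit, MRPS17 read 1277, 1374 and 1325 with erlotinib, against 2275, 2244 and 2339.6 with DMSO. MRPS2 read 330.2, 329 and 295 with erlotinib, against 559, 523 and 548 with DMSO. Both had tight, well separated groups, with changes of -0.78 ± 0.05 and -0.76 ± 0.07.

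**Figure D2:**
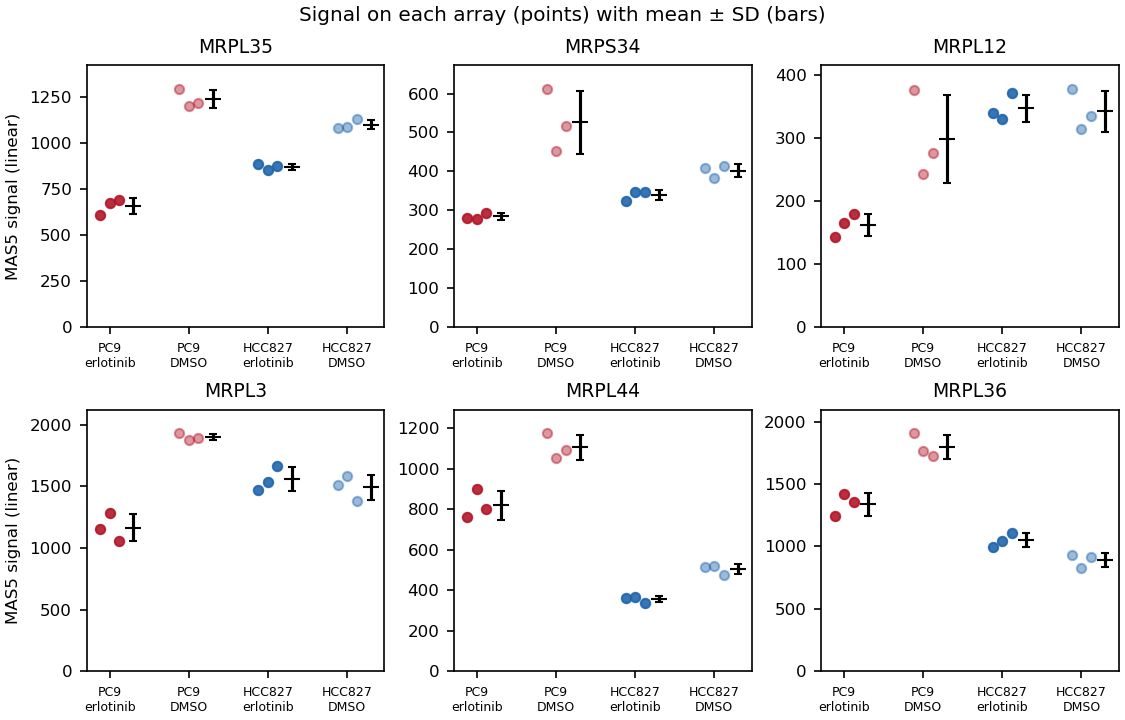
Points give the MAS5 signal (linear, vertical axis from 0) on each of the 12 arrays for 6 members, with erlotinib left of DMSO in each line, and bars give mean ± SD of the 3 arrays. MRPL35, MRPS34 and MRPL44 are lower with erlotinib in both lines, MRPL12 and MRPL3 are lower in PC9 and overlap in HCC827, and MRPL36 is lower in PC9 and higher in HCC827.

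The next members were chosen by their place in the particle. At the factor-binding side of the large subunit MRPL11 fell by 0.48 ± 0.08, while MRPL10, the base of the stalk, had a change of -0.18 ± 0.09 (adjusted p = 0.0818) and passed when PC9 DMSO replicate 2 was left out (-0.30, adjusted p = 0.0026). MRPL3, near the centre where peptide bonds form, read 1151, 1279 and 1059 with erlotinib, against 1929, 1876 and 1892 with DMSO, and fell by 0.71 ± 0.07. By the tunnel exit, MRPL23 fell by 0.48 ± 0.11, whereas MRPL45, which anchors the ribosome to the inner membrane, had a change of -0.10 ± 0.07 (adjusted p = 0.212). MRPL58, a peptidyl-tRNA hydrolase built into the large subunit, fell by 0.59 ± 0.08. In the small subunit MRPS12 of the decoding centre fell by 0.48 ± 0.09, MRPS7 on the path of the messenger by 0.38 ± 0.07 and MRPS16 by 0.24 ± 0.07.

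By class, 26 of 31 large-subunit proteins with a bacterial counterpart fell in PC9, 16 of 19 large-subunit proteins specific to mitochondria, 13 of 16 small-subunit proteins with a bacterial counterpart and 9 of 9 small-subunit proteins specific to mitochondria. In that order the class medians were -0.48, -0.43, -0.43 and -0.34; a difference between classes was not tested. MRPS30 and MRPS18A count with the large subunit here, where structures of the ribosome place them in spite of their names.

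In the last class MRPS25 fell by 0.73 ± 0.09, and MRPS27 and MRPS22 by 0.14 ± 0.05 and 0.20 ± 0.08. These smallest falls rested on single arrays: MRPS27 missed the threshold without PC9 DMSO replicate 1, PC9 DMSO replicate 3 or PC9 erlotinib replicate 1 (adjusted p = 0.0634 to 0.155), and MRPS22 without PC9 DMSO replicate 1, PC9 erlotinib replicate 1 or PC9 erlotinib replicate 3 (adjusted p = 0.0864 to 0.215). MRPS18A, MRPS18B and MRPS18C are human relatives of 1 bacterial protein. MRPS18B and MRPS18C fell by 0.68 ± 0.07 and 0.50 ± 0.08, while MRPS18A, at -0.28 ± 0.12, narrowly missed (adjusted p = 0.0545). MRPS18A passed without PC9 DMSO replicate 2 (-0.34, adjusted p = 0.0388), PC9 erlotinib replicate 3 (-0.34, adjusted p = 0.0472), HCC827 erlotinib replicate 1 (adjusted p = 0.0451) or HCC827 erlotinib replicate 3 (adjusted p = 0.0169). Its other probe set fell in PC9 (-0.34, adjusted p = 0.00251) and in HCC827 (-0.30, adjusted p = 0.00788).

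The 11 members not called in PC9 were MRPL10, MRPL17, MRPL33, MRPL43, MRPL45, MRPL52, MRPL55, MRPS5, MRPS14, MRPS18A and MRPS21. Of these, MRPL52 and MRPS14 were above 0, at 0.18 ± 0.09 and 0.02 ± 0.06. MRPL52 read 1137, 1272 and 983 with erlotinib, against 1087, 943 and 957 with DMSO, which overlap. It was called higher without PC9 DMSO replicate 1 or without PC9 erlotinib replicate 3, the only 2 of the 12 single arrays whose loss gave a rise among the members in PC9. MRPL43 (adjusted p = 0.0553) passed as lower without PC9 erlotinib replicate 1, and MRPL55 (adjusted p = 0.0577) without PC9 erlotinib replicate 3, HCC827 DMSO replicate 3 or HCC827 erlotinib replicate 3.

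**Figure D3:**
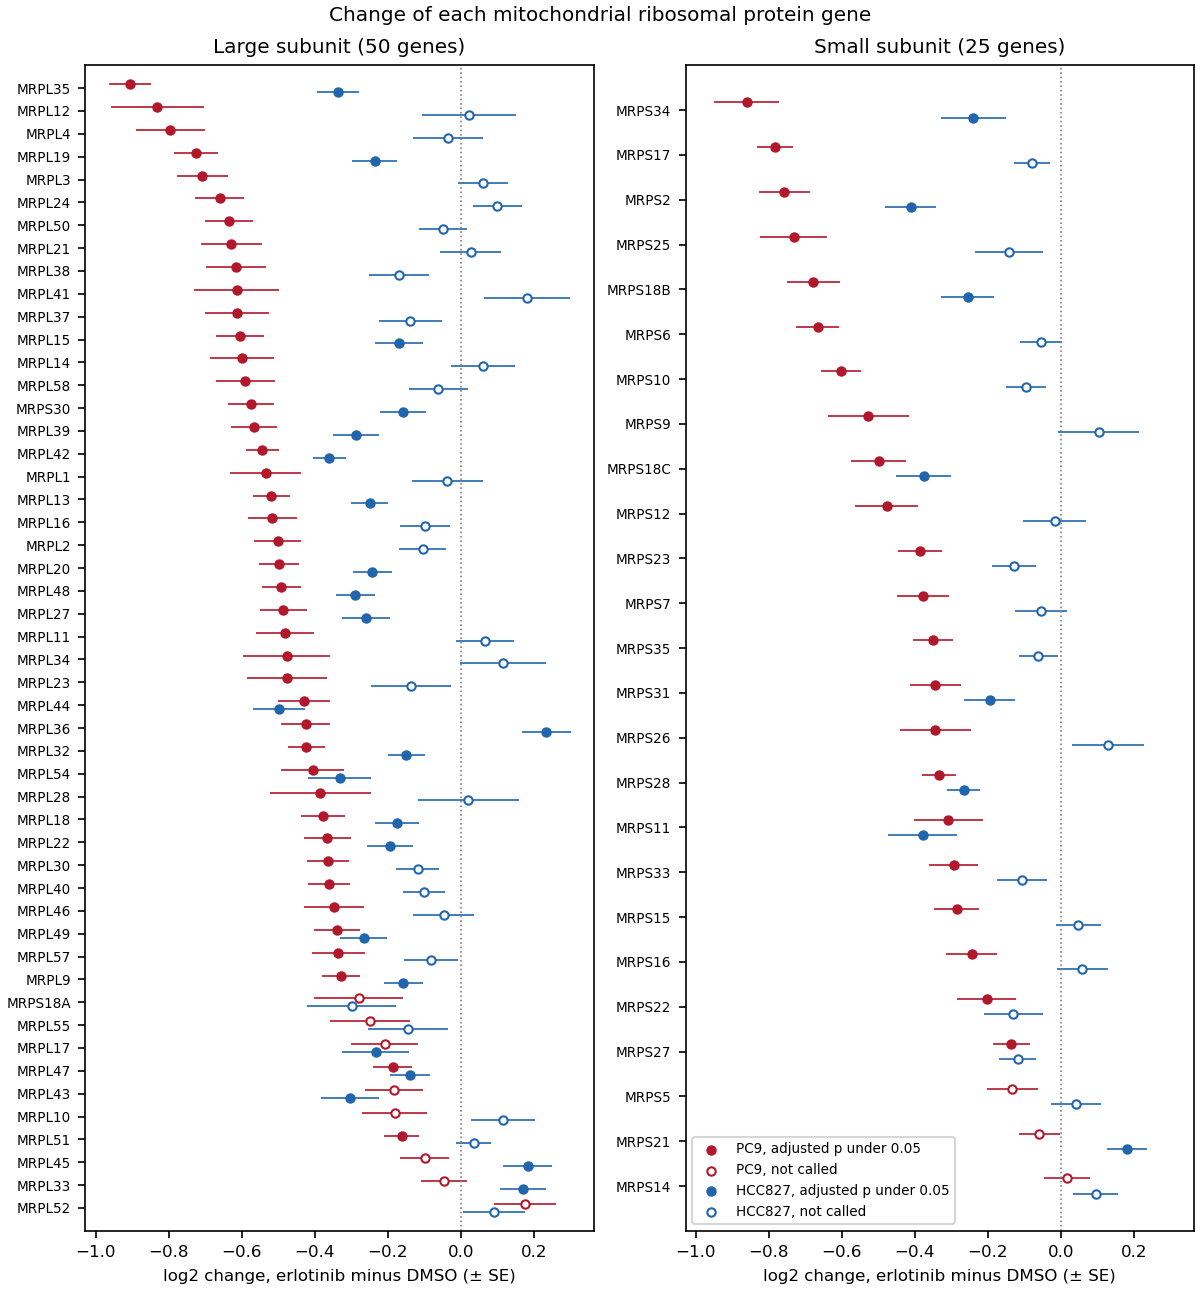
Each row is 1 of the 75 protein genes, sorted by its PC9 change, with the log2 change of erlotinib minus DMSO on the horizontal axis and bars for ± SE; PC9 is red, HCC827 is blue, and filled points passed an adjusted p under 0.05. In PC9 64 points are filled and all of those lie left of 0, and in HCC827 27 lie filled to the left and 4 to the right.

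In HCC827 the same genes changed less and not all in 1 direction. Of the 75, 27 fell, 4 rose and 44 were not called, where 19.5% of all genes tested fell and 32.2% rose. The median change was -0.11, against 0.07 over all genes tested. Erlotinib arrays were all below DMSO arrays for 38 members (50.7%), where 24.5% of genes tested had this. Without HCC827 DMSO replicate 1 the falls numbered 17, and the rises numbered 2 without HCC827 DMSO replicate 1, HCC827 DMSO replicate 2 or HCC827 erlotinib replicate 2. Centring each array on its median shifted the median of all genes by -0.166 in PC9 and -0.117 in HCC827, and gave 74 falls and 0 rises among the members in PC9, and 45 and 0 in HCC827, where 40.8% and 30.5% of all genes tested then fell. Relative to the median of all genes, the members' median was -0.477 in PC9 and -0.174 in HCC827. Centring shifts all genes of an array alike and cannot change these values. With quantile normalization they were -0.403 in PC9 and -0.138 in HCC827.

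MRPL44, a large-subunit protein with the fold of a double-strand RNA nuclease, fell most in HCC827 on the probe sets used. Its signal there was 361, 366 and 339 with erlotinib, against 516, 522 and 477 with DMSO. No erlotinib array came near a DMSO array, and the change was -0.50 ± 0.07 (adjusted p = 2.51e-05). In PC9 it read 760.1, 900.4 and 802 with erlotinib, against 1176, 1054 and 1092 with DMSO, and fell by 0.43 ± 0.07.

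In HCC827 MRPS2 read 468, 534 and 531 with erlotinib, against 681, 668 and 694 with DMSO, a fall of 0.41 ± 0.07. MRPS11 and MRPS18C of the small subunit fell by 0.38 ± 0.09 and 0.38 ± 0.08. The MRPS18C value rests on its probe set: another rose there by 0.54 (adjusted p = 0.00016), and the average of all turned to 0.14 (adjusted p = 0.0924). The large-subunit proteins MRPL42, specific to mitochondria, and MRPL35 fell by 0.36 ± 0.05 and 0.34 ± 0.06. These 5 fell in PC9 too, with MRPS11 at -0.31 ± 0.09, a call that ended without PC9 erlotinib replicate 1 (adjusted p = 0.0614).

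The 4 members that rose in HCC827 were MRPL36, MRPL45, MRPS21 and MRPL33. MRPL36, a very small large-subunit protein, read 998, 1042 and 1109 with erlotinib, against 931, 826 and 918 with DMSO. Its erlotinib arrays were all above its DMSO arrays, with a change of 0.23 ± 0.07 (adjusted p = 0.00754) that passed with any 1 array left out. MRPL45 rose by 0.18 ± 0.07, MRPS21 by 0.18 ± 0.06 and MRPL33 by 0.17 ± 0.06. MRPS21 missed without HCC827 DMSO replicate 2 (adjusted p = 0.0698), MRPL45 without HCC827 DMSO replicate 1, HCC827 DMSO replicate 3 or HCC827 erlotinib replicate 2 (adjusted p = 0.0663 to 0.159) and MRPL33 without HCC827 DMSO replicate 1, HCC827 DMSO replicate 2, HCC827 erlotinib replicate 2 or HCC827 erlotinib replicate 3 (adjusted p = 0.0904 to 0.108). With centring on the median none of the 4 passed.

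Measures of RNA or amplification quality moved with erlotinib in HCC827. The actin control probe sets had a ratio of 3' over 5' signal of 2.45 to 3.64 on the HCC827 erlotinib arrays, against 2.10 to 2.21 on the HCC827 DMSO arrays, and of 2.05 to 2.53 with erlotinib against 2.09 to 2.35 with DMSO in PC9. The same ratio of GAPDH was 1.26 to 1.54 with erlotinib against 1.15 to 1.19 with DMSO in HCC827, which do not overlap, and 1.17 to 1.20 against 1.13 to 1.17 in PC9. With the log2 of the actin ratio as a covariate 13 members fell and 1 (MRPS21) rose in HCC827, and 67 fell and 0 rose in PC9. Every HCC827 erlotinib ratio lay above every HCC827 DMSO ratio, so this covariate cannot be separated fully from the drug there. No share of all genes is given for this fit or the next. An excess of falls in HCC827 therefore cannot be read from these counts. With HCC827 erlotinib replicate 1, whose actin ratio is the lowest of its group, as the sole erlotinib array of that line, 14 fell and 0 rose in HCC827; the lone array is then assumed to vary like the other groups.

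The difference between the lines was tested as the PC9 change minus the HCC827 change. It was called negative for 48 of the 75 members and positive for 0, where 23.9% of genes tested were called negative and 21.2% positive. The median difference was -0.30, and 69 of 75 members were below 0; at an unadjusted limma p under 0.05, 0 were positive. With HCC827 erlotinib replicate 1 as the sole erlotinib array of its line the negative calls numbered 29.

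On the probe sets used MRPL12 differed most, by -0.85 ± 0.18 (adjusted p = 0.0012). In HCC827 it read 340.1, 331 and 371 with erlotinib, against 378, 315 and 335 with DMSO, which overlap. MRPL41, a large-subunit protein specific to mitochondria, differed by -0.80 ± 0.17, as it fell by 0.61 ± 0.12 in PC9 and had a change of 0.18 ± 0.12 in HCC827 (adjusted p = 0.21). Its signals were 217, 267 and 311 with erlotinib, against 484, 357 and 386 with DMSO in PC9, and 475, 508 and 526 against 464, 418 and 447 in HCC827, so the arrays separated in opposite directions although the HCC827 change did not pass. Another probe set of MRPL41 has the higher mean on the linear scale (406 against 405), and its difference of -0.92 (adjusted p = 9.21e-05) is larger than that of MRPL12; MRPL41 was the only member for which the 2 scales chose different probe sets. MRPL3 differed by -0.77 ± 0.10, and its HCC827 signals of 1469.7, 1537 and 1660.0 with erlotinib, against 1511, 1583 and 1380.4 with DMSO, overlap. MRPL4 differed by -0.76 ± 0.13 and likewise had no called change in HCC827 (-0.03 ± 0.10). MRPL36 was the member that fell in PC9 and rose in HCC827. In PC9 it read 1241, 1422 and 1354 with erlotinib, against 1908, 1764 and 1724 with DMSO, and the difference was -0.66 ± 0.09 (adjusted p = 3.3e-05).

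Counted together, 25 members fell in both lines, where 11.6% of genes tested did, and for 13 of these the difference was also called negative. Another 38 fell in PC9 and were not called in HCC827, where 13.7% of genes tested had this, and 32 of the 38 had a difference called negative. Among all genes with these calls the difference was negative for 31.9% and 66.3%. MRPL17 and MRPL43 fell in HCC827 and were not called in PC9, and 6 members were not called in either line. Across the 75 genes the changes in the 2 lines had Pearson r = 0.252 and Spearman rho = 0.174, against 0.489 and 0.514 over all genes tested, given as a description across genes of the same arrays.

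**Figure D4:**
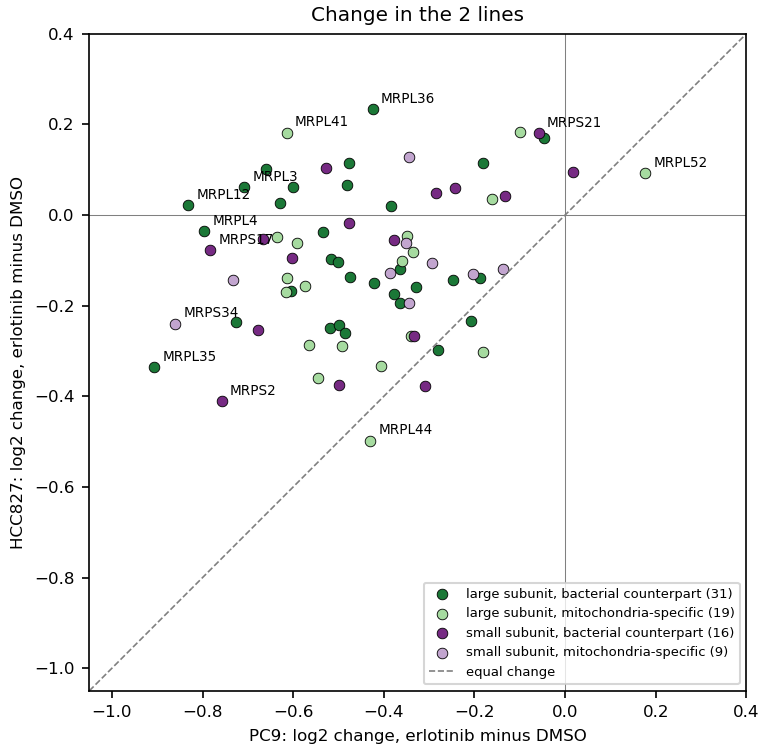
Each point is 1 of the 75 protein genes, with its log2 change (erlotinib minus DMSO) in PC9 on the horizontal axis and in HCC827 on the vertical axis, coloured by subunit and descent; the dashed line marks equal change. Of the points, 69 lie above the dashed line, and MRPL36 has a negative change in PC9 and a positive one in HCC827.

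The lines already differed without drug. Comparing PC9 DMSO with HCC827 DMSO, 46 members were higher in PC9 and 7 lower, where 36.8% of genes tested were higher and 39.4% lower. The median difference was 0.24. This comparison shares its arrays with those above, so the values are only set side by side.

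MRPL44 averaged 1107 ± 62.7 in PC9 DMSO and 505 ± 24.4 in HCC827 DMSO (SD, n = 3 each), a log2 difference of 1.12 ± 0.07. MRPL21 averaged 1285 ± 140.4 in PC9 DMSO and 587 ± 24.6 in HCC827 DMSO (1.11 ± 0.08), and MRPL36 and MRPS25 differed by 1.01 ± 0.07 and 0.97 ± 0.09. MRPS28 ran the other way, with 978 ± 3.73 in PC9 DMSO and 2055 ± 36.5 in HCC827 DMSO (-1.06 ± 0.05), followed by MRPL43 (-0.83 ± 0.08), MRPL9 (-0.38 ± 0.05) and MRPS18C (-0.34 ± 0.08). Some of these values depend on the probe set. Another of MRPL43 was higher in PC9 DMSO (0.21, adjusted p = 0.0444), and another of MRPL44 differed by 0.25 (adjusted p = 0.05). Probe sets of MRPL4, MRPL42, MRPL50 and MRPS14 were also called opposite to the brightest between the DMSO groups. With erlotinib MRPS28 fell in both lines, by 0.33 ± 0.05 in PC9 and 0.27 ± 0.05 in HCC827. MRPL9 fell by 0.33 ± 0.05 in PC9 and 0.16 ± 0.05 in HCC827, where its call ended without HCC827 DMSO replicate 1, HCC827 DMSO replicate 3, HCC827 erlotinib replicate 1 or HCC827 erlotinib replicate 2 (adjusted p = 0.0605 to 0.0991).

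Among the brightest probe sets of the members, MRPL47 averaged 2552 ± 217 with erlotinib and 2899 ± 58.9 with DMSO in PC9 and fell by 0.19 ± 0.05, MRPL51 fell by 0.16 ± 0.05, and MRPS17 had one of the largest falls. Among the dimmest, MRPL34 averaged 149.7 ± 18.2 with erlotinib and 212 ± 29.0 with DMSO in PC9 and fell by 0.48 ± 0.12, next to MRPL12 with one of the largest falls. Large falls thus stood at both ends of the signal range. Across the 75 genes the mean log2 signal and the PC9 change had r = 0.217 and rho = 0.218, a description across genes of the same arrays.

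Several probe sets exist for 37 of the members, and 60 of the other probe sets were bright enough to test. In PC9 43 of these fell, 5 rose and 12 were not called, and in HCC827 19 fell, 3 rose and 38 were not called. No share over all probe sets is given, so an excess cannot be read from these counts. Calls opposite to the brightest probe set came in PC9 from MRPS25, whose other probe set rose by 0.45, MRPL39 (0.45), MRPS18C (0.26) and MRPS30 (0.20). Averaged over all its probe sets, the PC9 change of MRPL39 was -0.059 (adjusted p = 0.508) and that of MRPS18C -0.021 (adjusted p = 0.8). That of MRPS30 was -0.11 (adjusted p = 0.0847) and that of MRPS11 -0.11 (adjusted p = 0.276), so the PC9 falls of these 4 rest on the probe set used. These averages weigh dim and bright probe sets alike. The other probe sets had mean signals of 9.5 for MRPL39, 24 for MRPS11 and 118 and 17.8 for MRPS18C. For MRPS30 they were 407 and 100. The brightest probe sets of MRPL39, MRPS11, MRPS18C and MRPS30 had 825, 377, 563 and 1155. In HCC827 the averages of MRPS18C and MRPS30 turned to 0.14 and 0.039. MRPS12 fell on each of its 4 probe sets in PC9, and in HCC827 on 2 of them, by 0.75 and 0.89, but not on the brightest (-0.02 ± 0.09). Some other probe sets fell more than MRPL35 in PC9, from MRPL50 (-0.99) and MRPS10 (-0.93). Several fell more than MRPL44 in HCC827, among them those of MRPL47 (-1.005) and MRPL19 (-0.83).

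The 2 symbols that are no protein genes moved upward. MRPL20-AS1, an RNA antisense to MRPL20, rose by 0.39 ± 0.11 in PC9 and 0.39 ± 0.11 in HCC827. In PC9 it read 179, 213 and 183 with erlotinib, against 171, 126 and 139 with DMSO, which do not overlap. MRPL20 itself had changes of -0.50 ± 0.05 and -0.24 ± 0.05 in the 2 lines. The pseudogene MRPL45P2 rose by 1.01 ± 0.15 in PC9 and 0.77 ± 0.15 in HCC827, at low signals of 54.5 ± 7.76 with erlotinib and 23.4 ± 7.04 with DMSO in PC9 (SD, n = 3 each). It is a near copy of MRPL45, and binding of MRPL45 messages to its probes was not tested.

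Genes that make and serve the mitochondrial ribosome were set beside its proteins, and their counts are read against all genes tested, of which 28.3% fell and 36.3% rose in PC9 and 19.5% fell and 32.2% rose in HCC827. Of 4 ribosomal proteins under other symbols 3 fell in PC9 and 0 were called in HCC827 by limma, where an unadjusted p was under 0.05 for 0. DAP3, a GTP-binding protein of the small subunit, fell by 0.34 ± 0.06, GADD45GIP1 by 0.38 ± 0.13 and CHCHD1 by 0.28 ± 0.09 in PC9; without PC9 DMSO replicate 1 or PC9 erlotinib replicate 1 the count was 1, DAP3. Among 23 assembly and RNA modification factors 10 (43.5%) fell and 2 rose in PC9 (median -0.21), and 5 (21.7%) fell and 4 rose in HCC827 (median -0.06), close to the share over all genes for the falls in HCC827. The PC9 rises, METTL17 and YBEY, numbered 1 without any 1 of PC9 DMSO replicates 2 and 3 and PC9 erlotinib replicates 1 and 2, and the HCC827 falls numbered 3 without HCC827 DMSO replicate 2.

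TFB1M, which methylates the small-subunit RNA, read 192, 171 and 187 with erlotinib, against 367, 317 and 319 with DMSO in PC9. It lay far lower on all 3 erlotinib arrays, a fall of 0.84 ± 0.08, and its change in HCC827 was -0.11 ± 0.08. The RNA-binding protein FASTKD2 and the methyltransferase MRM3 fell by 0.68 ± 0.06 and 0.61 ± 0.08 in PC9, and with all its probe sets averaged FASTKD2 no longer passed (-0.16, adjusted p = 0.0755). In HCC827 the pseudouridine synthase RPUSD4 and the methyltransferase METTL15 rose by 0.57 ± 0.10 and 0.47 ± 0.13, while the helicase DDX28 fell by 0.45 ± 0.09. METTL15 did not pass with its probe sets averaged (0.012, adjusted p = 0.922).

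Of 22 mitochondrial translation factors and RNA partners 14 (63.6%) fell and 2 rose in PC9 (median -0.34), and 6 (27.3%) fell and 2 rose in HCC827 (median -0.10). LRPPRC, which stabilises mitochondrial messages, fell by 0.52 ± 0.06 in PC9, and MTIF2, an initiation factor, by 0.49 ± 0.06. The release factor gene MTRF1 went against the list in PC9. It read 201, 185 and 148 with erlotinib, against 87.5, 89.8 and 76.8 with DMSO, clearly higher on all erlotinib arrays, a rise of 1.00 ± 0.11, and had a change of 0.04 ± 0.11 in HCC827. MTIF3 was the other rise in PC9 (0.23 ± 0.07), and the average of its probe sets turned to -0.053 (adjusted p = 0.549). In HCC827 the ribosome recycling factor MRRF and the elongation factor GUF1 fell by 0.41 ± 0.07 and 0.36 ± 0.07, and GATB, of the enzyme that makes glutaminyl-tRNA, rose by 0.38 ± 0.09. The rises numbered 1 in PC9 without PC9 DMSO replicate 3, and 1 in HCC827 without HCC827 DMSO replicate 1, HCC827 DMSO replicate 3 or HCC827 erlotinib replicate 2.

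Of 14 genes for transcription and upkeep of mitochondrial DNA 12 (85.7%) fell and 0 rose in PC9 (0 higher at an unadjusted p under 0.05, median -0.41), and 7 (50%) fell and 3 rose in HCC827 (median -0.19). TFAM, which packages mitochondrial DNA and starts its transcription, fell by 0.40 ± 0.06 in PC9 and 0.24 ± 0.06 in HCC827. The RNA-processing enzyme PNPT1, the helicase TWNK and the transcription factor TFB2M fell by 0.72 ± 0.07, 0.59 ± 0.12 and 0.58 ± 0.06 in PC9. POLRMT, the mitochondrial RNA polymerase, read 151, 119.6 and 119.6 with erlotinib, against 203, 166 and 193 with DMSO in PC9, and 162, 163 and 194 against 113, 115 and 116 in HCC827. It was lower on all erlotinib arrays in PC9 and higher on all in HCC827, with changes of -0.50 ± 0.11 and 0.56 ± 0.11 and a difference of -1.06 ± 0.15 (adjusted p = 3.13e-05). Its HCC827 rise did not pass with its probe sets averaged (0.077, adjusted p = 0.389) or with the actin ratio as a covariate (0.30, adjusted p = 0.12). TOP1MT, the mitochondrial topoisomerase, also fell in PC9 (-0.40 ± 0.12) and rose in HCC827 (0.54 ± 0.12). TBRG4, which acts on mitochondrial messages, rose in HCC827 (0.47 ± 0.14), not so without HCC827 DMSO replicate 3 (adjusted p = 0.0618). TBRG4 was dim there, at 18.2, 18.5 and 19.4 with erlotinib against 13.5, 13.2 and 7.7 with DMSO, near the table's median of 13.

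Among 8 nuclear regulators of mitochondrial genes 7 (87.5%) fell and 0 rose in PC9 (0 higher at an unadjusted p under 0.05, median -0.66). In HCC827 4 (50%) fell and 1 rose (median -0.24), and the falls numbered 2 without HCC827 DMSO replicate 1 or HCC827 DMSO replicate 2. PPARGC1B, a coactivator of mitochondrial biogenesis, fell by 1.20 ± 0.16 in PC9, the nuclear respiratory factor NRF1 by 0.77 ± 0.09 and the nuclear receptor ESRRA by 0.71 ± 0.08; PPARGC1A was too dim to test. NRF1 also fell in HCC827, by 0.80 ± 0.09, with a difference between lines of 0.02 ± 0.13, and the coactivator PPRC1 fell there by 0.44 ± 0.09. GABPA, the DNA-binding part of the ETS factor GABP, had a change of -0.10 ± 0.09 in PC9 and fell by 0.25 ± 0.09 in HCC827, but not without HCC827 DMSO replicate 1, HCC827 DMSO replicate 2, HCC827 erlotinib replicate 1 or HCC827 erlotinib replicate 3 (adjusted p = 0.0843 to 0.114); in PC9 it passed without PC9 DMSO replicate 1 (-0.21, adjusted p = 0.0331). GABPB1, its partner, fell by 0.37 ± 0.12 in PC9 and 0.30 ± 0.12 in HCC827; the PC9 fall ended without PC9 DMSO replicate 2 or PC9 erlotinib replicate 3 (adjusted p = 0.0657 to 0.0725) and the HCC827 fall without PC9 DMSO replicate 3, HCC827 DMSO replicate 1, HCC827 DMSO replicate 2, HCC827 DMSO replicate 3 or HCC827 erlotinib replicate 2 (adjusted p = 0.0501 to 0.194). YY1 fell by 0.29 ± 0.08 in PC9 (adjusted p = 0.0032) and had a change of -0.15 ± 0.08 in HCC827 (adjusted p = 0.116), which passed without PC9 DMSO replicate 1 or without HCC827 erlotinib replicate 3. MYC, a factor that drives ribosome and mitochondrial genes, read 621, 774 and 609.7 with erlotinib, against 987, 1099 and 1071 with DMSO in PC9, and 1343, 1358 and 1454 against 992, 991 and 1029.5 in HCC827. It fell by 0.66 ± 0.08 in PC9 and rose by 0.46 ± 0.08 in HCC827, a difference of -1.12 ± 0.11 (adjusted p = 6.3e-07). The proliferation marker MKI67 fell by 0.85 ± 0.09 in PC9 and 0.83 ± 0.09 in HCC827.

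Of 6 messages of mitochondrial DNA, which the mitochondrial ribosome translates, 0 were called in PC9 by limma, with 0 at an unadjusted p under 0.05 (changes of -0.05 to 0.11), but 2 were higher with quantile normalization and 4 lower with centring on the median. In HCC827 ND2 rose by 0.19 ± 0.06, ND4 by 0.17 ± 0.05 and COX2 by 0.15 ± 0.05, and with centring 0 did. COX1 read 4012, 4408 and 3963 with erlotinib, against 3792, 4014 and 4084 with DMSO in PC9, which overlap.

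Of 52 cytosolic ribosomal protein genes 11 (21.2%) fell and 1 rose in PC9 (median -0.05), and 0 fell and 18 (34.6%) rose in HCC827 (median 0.12), where limma gave 0 lower at an unadjusted p under 0.05. Of all genes tested 28.3% fell and 36.3% rose in PC9, and 19.5% fell and 32.2% rose in HCC827. The share of rises in HCC827 was thus close to that over all genes. With centring on the median 46 fell and 1 rose in PC9, and 0 fell and 3 rose in HCC827. Of all genes tested 40.8% and 30.5% then fell. The PC9 falls numbered 17 without PC9 erlotinib replicate 2, the PC9 rises 2 without PC9 DMSO replicate 1 and the HCC827 rises 11 without HCC827 erlotinib replicate 3.

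Of 70 nuclear genes for oxidative phosphorylation subunits 39 (55.7%) fell and 3 rose in PC9 (median -0.17), and 8 (11.4%) fell and 11 (15.7%) rose in HCC827 (median 0.05). The shares over all genes tested were 28.3% and 36.3% in PC9, and 19.5% and 32.2% in HCC827. With centring 59 fell and 1 rose in PC9, and 20 fell and 2 rose in HCC827, where 40.8% and 30.5% of all genes tested fell. The rises in PC9 numbered 1 without PC9 DMSO replicate 2, PC9 DMSO replicate 3, PC9 erlotinib replicate 1 or PC9 erlotinib replicate 2, and in HCC827 7 without HCC827 DMSO replicate 1 and 4 without HCC827 DMSO replicate 3 and 5 without HCC827 erlotinib replicate 2 or HCC827 erlotinib replicate 3. In PC9 the median of the mitochondrial ribosomal protein genes, -0.43, lay below those of both lists, as a description.

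**Figure D5:**
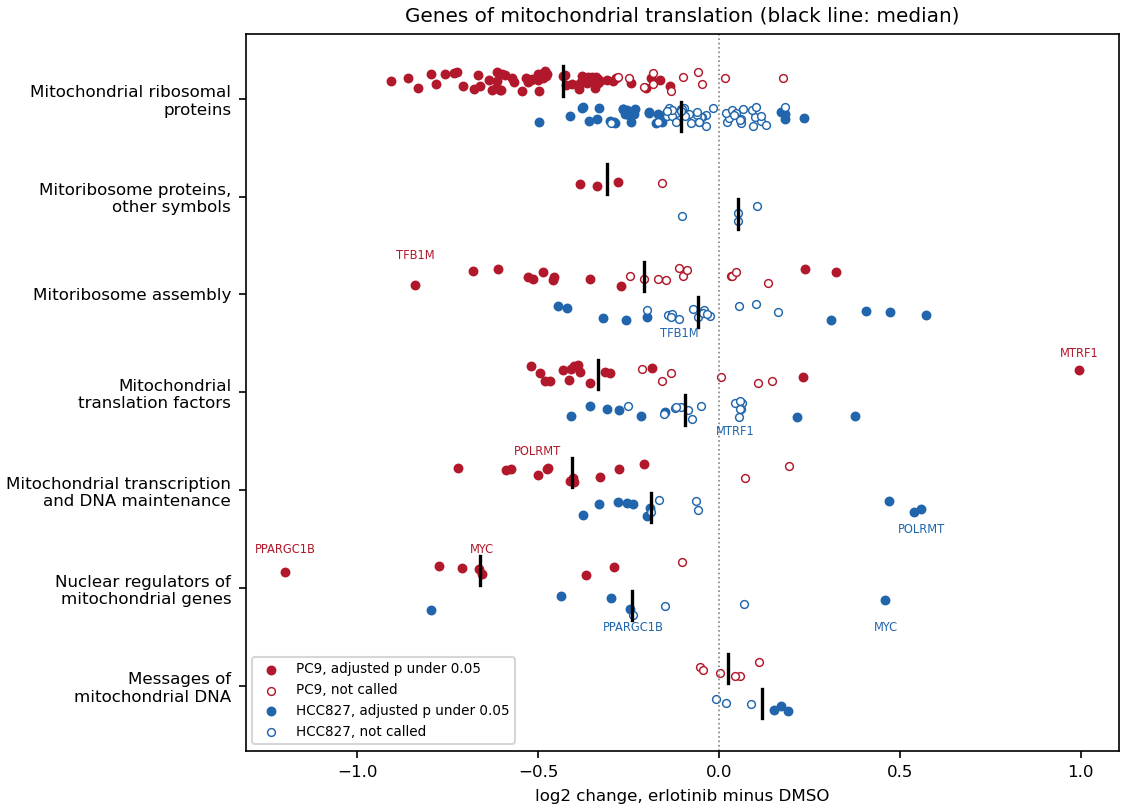
Each point is 1 gene tested, in rows for the 75 mitochondrial ribosomal protein genes and lists of genes around them, with the log2 change (erlotinib minus DMSO) on the horizontal axis in red for PC9 and blue for HCC827, filled where the adjusted p was under 0.05, and black lines for list medians. In PC9 the medians of the ribosomal proteins and of the transcription and DNA list are -0.43 and -0.41, and the messages of mitochondrial DNA lie close to 0. The nuclear regulators have the lowest PC9 median of the rows, -0.66.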

How the data were processed

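Messenger RNA was measured on 12 one-colour Affymetrix arrays, 3 per group. The authors deposited 1 linear signal intensity per probe set, made with MAS5 (version not given in the sources used here), per the submitters' processing notes. Each array has a 2% trimmed mean of 150. RNA was amplified before labelling, per the labels' protocols. Of the 54675 probe sets 41091 name 1 gene, 1801 name several, 11721 name none and 62 are controls.

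The filter on dim genes asked for a group mean of 13, the table's median, in any group. The fit was made with limma 3.58.1 (R 4.3.3) on log2(signal + 8), with group means, all 12 arrays and an intensity trend, and p-values were adjusted by Benjamini-Hochberg. The procedure was tested on simulated data. The number of arrays limits the precision.

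The members, gene lists and classes were chosen with earlier results of these data known, and classes and roles come from general knowledge. Members were named by rule: the 6 largest called changes each way per line, the 4 largest each way between lines and between DMSO groups, the 4 brightest and 4 dimmest, those with an opposite probe set and others set by role; from each list up to 3 called genes per line and some set by name. MRPL52, MRPL17, MRPS5, MRPS14, MRPL20, MRPL38, MRPS10, METTL17, YBEY, MTIF3, GABPB1, YY1 and the single messages of mitochondrial DNA were named after their values were seen, and that list was added after the files were seen. Alternatives were the constant, the scaling, the filter, the probe set rule, the trend, the line alone, a replicate block, a fold tested against, an actin covariate and arrays left out.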

Additional observations from a re-analysis of the deposited data

Results flagged for a closer look

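Each gene below is given because the test of the difference between the lines itself was passed, as the PC9 change minus the HCC827 change on the log2 scale in limma. Among the members of the mitochondrial ribosome named above, the differences were -0.85 for MRPL12, -0.80 for MRPL41, -0.77 for MRPL3, -0.76 for MRPL4, -0.71 for MRPS17, -0.66 for MRPL36 and MRPL21, -0.62 for MRPS34, -0.59 for MRPL34 and MRPS25, -0.57 for MRPL35, -0.55 for MRPL11, -0.53 for MRPL58, -0.51 for MRPS10, -0.46 for MRPS12, -0.45 for MRPL38, -0.42 for MRPS18B and MRPS30, -0.35 for MRPS2, -0.32 for MRPS7, -0.30 for MRPS16, -0.28 for MRPL45 and MRPL39, -0.26 for MRPL20, -0.24 for MRPS21, -0.20 for MRPL51 and -0.18 for MRPL42. A negative value means a larger fall, or a smaller rise, in PC9. Some of these calls ended when 1 array was left out, namely MRPS16 without HCC827 DMSO replicate 3 or HCC827 erlotinib replicate 2; MRPL45 without PC9 DMSO replicate 1, PC9 erlotinib replicate 1, PC9 erlotinib replicate 3, HCC827 DMSO replicate 3 or HCC827 erlotinib replicate 2; MRPL39 without HCC827 DMSO replicate 3; MRPS21 without PC9 erlotinib replicate 1 or HCC827 DMSO replicate 2; MRPL51 without PC9 DMSO replicate 2, PC9 DMSO replicate 3, PC9 erlotinib replicate 1, HCC827 DMSO replicate 1, HCC827 DMSO replicate 3 or HCC827 erlotinib replicate 2; and MRPL42 without PC9 DMSO replicate 3, HCC827 DMSO replicate 1, HCC827 DMSO replicate 3 or HCC827 erlotinib replicate 2. With all probe sets of a gene averaged, the differences of MRPL39 and MRPL20 turned to 0.16 (adjusted p = 0.238) and 0.16 (adjusted p = 0.141), and those of MRPL42, MRPS12 and MRPS30 no longer passed (-0.15, -0.18 and -0.15). Other probe sets of MRPL39 and MRPS25 had positive differences of 0.60 (adjusted p = 0.0453) and 0.27 (adjusted p = 0.0282).

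Among the genes around the ribosome the differences were -1.12 for MYC, -1.06 for POLRMT, -0.96 for PPARGC1B, -0.94 for TOP1MT, -0.78 for ESRRA, -0.73 for TFB1M, -0.53 for TWNK, -0.52 for RPUSD4, -0.48 for FASTKD2, -0.47 for LRPPRC, -0.39 for PNPT1 and DAP3, -0.37 for GATB, -0.36 for MRM3, -0.29 for TFB2M and -0.28 for MTIF2, and YBEY and MTRF1 ran the other way at 0.46 and 0.95. With 1 array left out, GATB without PC9 DMSO replicate 1, PC9 erlotinib replicate 1, HCC827 DMSO replicate 2 or HCC827 erlotinib replicate 1, MRM3 without HCC827 DMSO replicate 3 or HCC827 erlotinib replicate 3 and MTIF2 without HCC827 DMSO replicate 3 missed the threshold. MYC, POLRMT and TOP1MT fell in PC9 and rose in HCC827. Averaged over all probe sets of the gene, the differences of FASTKD2, LRPPRC, TFB1M and YBEY no longer passed (-0.069, -0.19, -0.16 and 0.26).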

How the results depend on the processing

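With 1 array left out at a time, members called lower numbered 61 to 68 in PC9, 17 to 29 in HCC827 and 41 to 54 for the difference, and members called higher 0 to 1, 2 to 4 and 0 to 0; between DMSO groups 40 to 47 were higher in PC9 and 7 to 9 lower. Quantile normalization gave 1 rise in PC9 (MRPL52), and averaging the probe sets 1 (MRPS14). Median centring gave 45 falls and 0 rises in HCC827, and moved the higher share of all calls to 39.7% in PC9 (56.2% as deposited) and 43.5% in HCC827 (62.3%). Without the variance trend 2 members rose in HCC827. Tested against a 1.5-fold change, 3 members (MRPL35, MRPS17 and MRPS34) fell in PC9, 0 fell and 0 rose in HCC827, 0 differed between lines, and 7 were higher and 2 lower in PC9 DMSO than in HCC827 DMSO. The actin covariate gave 13 falls and 1 rise in HCC827, and HCC827 erlotinib replicate 1 as the sole erlotinib array gave 14 falls, 0 rises and 29 negative differences. No share of all genes is given for the actin covariate, the sole array, the averaged probe sets or quantile normalization. The same holds for the fit without the trend, the 1.5-fold test and the arrays left out, here and above. An excess of calls cannot be read from those counts. Over probe sets tested singly the counts were 107 lower and 5 higher in PC9, and 45 and 7 in HCC827. There were 2 positive differences, and 16 lower and 74 higher between DMSO groups, where more features are counted. No share over all probe sets is given beside them.

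Averaging the probe sets turned MRPS18C and MRPS30 in HCC827 to 0.14 and 0.039, the differences of MRPL39 and MRPL20 to 0.16 and 0.16, MTIF3 in PC9 to -0.053 and TFB2M in HCC827 to 0.050, as their probe sets disagree. Median centring turned MRPS14 in PC9 to -0.15 (adjusted p = 0.0365). The actin covariate turned the difference of MRPS18A to -0.39 (adjusted p = 0.0465); the cause was not tested.

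With the replicate number as a block 63 members fell in PC9, 25 in HCC827 and 47 had a negative difference. For this fit, too, no share of all genes is given. Between an erlotinib and a DMSO array of the same number r was -0.255, -0.194 and -0.020 in PC9 and 0.011, 0.131 and 0.012 in HCC827. This r is not that of the signals themselves. For arrays of different number it ran from -0.075 to 0.237 in PC9 and from -0.142 to 0.125 in HCC827. These values show no clear pairing by number, but 3 arrays a group cannot exclude shared cultures behind the numbers. The settings for genes around the ribosome and for genes named after their values were seen were added after seeing the data, as was the choice of probe sets by mean linear signal, under which the counts of called members were the same in both lines, for the difference and between DMSO groups. Detection calls were not used here, and 3 arrays a group limit the precision.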
